A study of Homo sapiens with 6 samples.

Results

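The suppressors of cytokine signalling, SOCS1 to SOCS7, and their relative CISH were described in HEK293T cells with and without extra PRMT1, together with STAT3 and STAT5B, transcription factors of the pathway that these proteins restrain. The 10 genes were chosen by family membership, with the strong fall of SOCS1 in these libraries already known, so their values between the groups are a description and carry no test. They are 10 of 57500 gene identifiers in the expression table, and all 10 were among the 15341 genes that reached 1 TPM in at least 3 of the 6 libraries. TPM are transcript levels per length, scaled to the same total in each library.

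HEK293T is an established human embryonic kidney line. The 3 control libraries are titled Mock and carry the genotype WT and the treatment Vector Control. The other 3 carry the genotype PRMT1 OV and come from cells transfected, with PolyJet, with a PCDNA3 plasmid that holds PRMT1, the main enzyme that adds asymmetric dimethyl groups to arginines. All cells grew in DMEM with serum, no cytokine treatment is named, and the labels do not say whether control cells received an empty plasmid, so transfection and PRMT1 cannot be told apart. Nothing says that the replicates came from separate cultures, so the spreads below may be technical.

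Cytokine receptors carry Janus kinases, which on binding of a cytokine phosphorylate the receptor and the STAT proteins that dock on it, and phosphorylated STAT dimers enter the nucleus and switch on genes. Among these genes are CISH, SOCS1, SOCS2 and SOCS3, whose proteins bind the receptor or the kinase and shut the signal down. Every SOCS protein has an SH2 domain, which binds phosphorylated tyrosine, and a SOCS box, which recruits a ubiquitin ligase built on CUL5. SOCS1 and SOCS3 also carry a short kinase inhibitory region, and SOCS4 to SOCS7 are better known for acting on receptor tyrosine kinases and insulin signalling than as STAT targets.

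Promoter sequences from RefSeq (GRCh38.p14) were found for 7 of the 10 genes, all but SOCS2, SOCS5 and SOCS7. They cover 250 bases before a listed start, which for SOCS3 is not the start of the gene as placed below. They are shown for SOCS1, the gene with the lowest level under PRMT1, and for CISH, the classical STAT5 target, because each holds a recognisable element of the pathway, and SOCS1 was lower with PRMT1 while the groups of CISH overlapped. The SOCS1 promoter (chr16:11256205-11256454, minus strand, inside the gene RMI2 but outside its exons) holds 1 match to GAAA, any 2 bases and GAAA again, a pattern bound by interferon regulatory factors, shown in capitals 113 bases before the start.
SOCS1 promoter: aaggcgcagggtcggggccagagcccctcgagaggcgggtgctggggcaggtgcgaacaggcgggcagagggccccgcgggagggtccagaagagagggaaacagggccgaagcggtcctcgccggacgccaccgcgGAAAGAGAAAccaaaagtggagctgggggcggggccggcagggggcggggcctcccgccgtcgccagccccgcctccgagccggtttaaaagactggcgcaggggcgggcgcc
The CISH promoter holds 4 matches to TTCNNNGAA, the palindrome that STAT dimers bind, in 2 pairs shown in capitals. The near pair lies at chr3:50611832-50611907 and the far pair at chr3:50611996-50612015, both given on the minus strand, and the far pair falls in an exon of MAPKAPK3, which runs the other way.
CISH promoter, near pair: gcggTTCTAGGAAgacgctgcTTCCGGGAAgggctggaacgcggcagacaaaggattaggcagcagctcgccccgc
CISH promoter, far pair: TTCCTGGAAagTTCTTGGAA

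Both patterns, and the GC box GGGCGG, were searched on both strands of the 250 bases. TTCNNNGAA occurs in 6.57% of 35116 promoter windows of this length, 4 or more times in 5 of them, and in no window of the other members found. The 2 SOCS3 windows lie at chr17:78360876-78361175 and chr17:78359618-78359917, each with 50 bases after the start. Neither holds the 250 bases before the SOCS3 gene start at 78360077, so the patterns were not searched there. The paired GAAA pattern occurs in 3.02% of the windows and, among the members found, in SOCS1. GGGCGG, found in 42.6% of windows, occurs 3 times in each of SOCS1, CISH and SOCS6, 2 times in each of STAT3 and STAT5B, 1 time in SOCS4, and in neither of the 2 SOCS3 windows. In the 15412 windows of tested genes the shares were 64.9% for GGGCGG, 5.04% for TTCNNNGAA and 2.18% for the paired GAAA pattern. A match is a description of the letters and does not show that a factor binds there.

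The libraries held 18196740 to 23163827 reads, recovered from the whole-number steps in the TPM values. PRMT1 itself went from 381 ± 14.7 to 73158 ± 11091 TPM (SD, n = 3 each), as labelled. Of 9 markers of HEK293T and kidney epithelium 8 were tested, with PAX8 at or near 0, and the 9 summed to 845 to 887 TPM in the controls and 643 to 719 TPM in the PRMT1 libraries. VIM, the most abundant, was lower (653 to 466 TPM, -0.49, limma adjusted p = 0.00199), alone of the 8 as deposited and as 1 of 4 lower after the scaling described below. Of all tested genes 8.64% were called lower as deposited and 24.1% after scaling. The part of the lower markers in the results was not tested. Of 10 blood cell markers CD3E and MS4A1 were listed at 0. Vector control library 3 and PRMT1 library 2 stood apart, with AT-rich transcripts high in PRMT1 library 2. More genes were higher than lower with PRMT1, and the median gene was 0.30 higher on the log2(TPM + 1) scale, which median-of-ratios scaling (division of each library by its typical ratio to the others) brought to 0.01. Each member's difference is therefore given on the deposited scale and after this scaling. In bulk RNA, fewer cells expressing a gene and less RNA per cell cannot be told apart.

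SOCS1, which binds Janus kinases directly and is best known for ending interferon signals, had the largest difference of the family. It stood at 12.1, 14.8 and 18.1 TPM in vector control libraries 1 to 3 and at 2.00, 1.14 and 0.716 TPM in PRMT1 libraries 1 to 3. The lowest control value was far above the highest PRMT1 value. The means were 15.01 ± 3.00 and 1.28 ± 0.65 TPM (SD, n = 3 each), an 11.7-fold lower level with PRMT1. The log2 difference was -2.83 (SE 0.23) as deposited, number 6 from the lowest among the 15341 genes, and -3.09 after scaling. The values rest on 93, 108 and 130 reads in the controls and 16, 9 and 5 in the PRMT1 libraries, or 331 against 30 in all. The 5 reads of PRMT1 library 3 have an exact 95% Poisson interval of 1.62 to 11.7 reads, which covers counting error only, so the order of the PRMT1 libraries among themselves is poorly set.

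SOCS1 (ENSG00000185338) lies at chr16:11254405-11256200 on the minus strand of GRCh38, inside RMI2 on the opposite strand, with no exonic base in common. Its reads came out whole with a length of 1225 bases, that of 1 of its annotated transcripts, and not with the 1796 exonic bases of GENCODE 29. RMI2, a subunit of a complex that resolves recombining DNA, was higher instead, from 37.9 to 55.7 TPM, a log2 difference of 0.54 (limma, Benjamini-Hochberg adjusted p = 0.00188) that did not pass after scaling (0.19, adjusted p = 0.110). The nearest tested genes outside this overlap were CLEC16A, 72.2 kb away at the lower coordinates, and LITAF, 291.5 kb away at the higher. CLEC16A, an autophagy gene, differed by 0.27 (adjusted p = 0.162) and LITAF by -0.07 (adjusted p = 0.626) on the log2 scale. After scaling CLEC16A stood at -0.03, and LITAF was lower at -0.42 (limma, adjusted p = 0.00556). Neither neighbour came near the difference of SOCS1.

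SOCS3 (ENSG00000184557, chr17:78356778-78360077, minus strand), the chief brake on signals through the shared receptor chain gp130, was lower with little spread in either group. Its controls held 5.67, 5.77 and 5.74 TPM and its PRMT1 libraries 2.57, 2.55 and 2.37 TPM. The groups did not overlap. The mean was 2.29-fold lower with PRMT1, with SDs of 0.05 and 0.11 TPM (n = 3 each) and a log2 difference of -0.94 (SE 0.11) as deposited and -1.22 after scaling. Reads numbered 92 to 97 per control library and 37 to 46 per PRMT1 library.

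CISH (ENSG00000114737, chr3:50606490-50611831, minus strand), the founding member of the family with the STAT pattern in the promoter shown above, had overlapping groups. It stood at 2.97, 2.36 and 3.24 TPM in control libraries 1 to 3, against 2.87, 3.19 and 3.02 TPM in the PRMT1 libraries, each PRMT1 value inside the control range. The means were 2.86 ± 0.45 and 3.03 ± 0.16 TPM (SD, n = 3 each). The log2 difference was 0.07 (SE 0.14) as deposited, with a 95% interval of -0.26 to 0.40, and turned to -0.20 after scaling. CISH shares 218 exonic bases with MAPKAPK3 on the other strand, at 85.8 and 73.1 TPM, so without a stated strand setting some of its reads could belong to that more abundant gene.

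SOCS2 (ENSG00000120833, chr12:93569814-93583487, plus strand), known as the brake on growth hormone signalling, was the member with the largest rise. Its controls held 2.99, 2.38 and 1.79 TPM and its PRMT1 libraries 5.12, 6.48 and 5.30 TPM. Every PRMT1 library lay above every control. The means were 2.39 ± 0.60 and 5.64 ± 0.74 TPM (SD, n = 3 each), 2.36-fold higher, with a log2 difference of 0.98 (SE 0.17) as deposited and 0.70 after scaling. It shares 277 exonic bases with SOCS2-AS1 on the opposite strand, which stood at 1.41 and 1.95 TPM. The 4 genes named so far, all known STAT targets, thus differed in direction: SOCS1 and SOCS3 lower, SOCS2 higher, and CISH with overlapping groups.

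**Figure D1:**
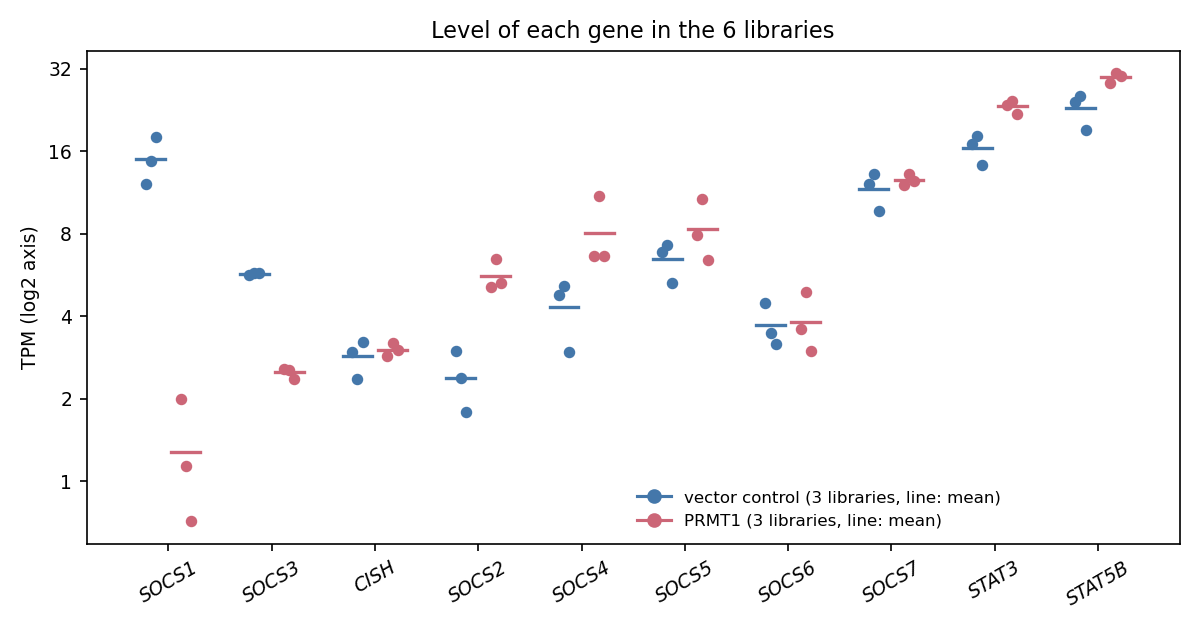
TPM of each gene (log2 axis) in the 3 vector control libraries (blue) and the 3 PRMT1 libraries (red), with a line at each mean. SOCS1 and SOCS3 sit lower and SOCS2, SOCS4, STAT3 and STAT5B higher in every PRMT1 library, while the groups of CISH, SOCS5, SOCS6 and SOCS7 overlap.

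Of the members that act mainly on receptor tyrosine kinases, SOCS4 (ENSG00000180008, chr14:55027230-55049488, plus strand), which targets the EGF receptor, was higher with PRMT1. Its controls held 4.81, 5.17 and 2.96 TPM and its PRMT1 libraries 6.65, 10.97 and 6.67 TPM. The groups did not overlap, but vector control library 3 was the lowest and PRMT1 library 2 by far the highest, the libraries that stood apart. The means were 4.31 ± 1.19 and 8.09 ± 2.49 TPM (SD, n = 3 each), and the log2 difference was 0.77 (SE 0.24) as deposited, 0.47 after scaling, 0.57 without the control library alone, 0.55 without the PRMT1 library alone and 0.36 without both.

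SOCS5 (ENSG00000171150, chr2:46698952-46780245, plus strand), the close relative of SOCS4, had overlapping groups, with 6.85, 7.30 and 5.29 TPM in control libraries 1 to 3, against 7.96, 10.7 and 6.44 TPM with PRMT1. Its log2 difference was 0.31 (SE 0.19) as deposited and -0.01 after scaling. SOCS6 (ENSG00000170677, chr18:70288901-70330200, plus strand), which binds the receptor KIT, held 4.48, 3.48 and 3.17 TPM in control libraries 1 to 3, against 3.60, 4.90 and 2.99 TPM with PRMT1. The groups of SOCS6 overlapped over nearly their whole range, with a log2 difference of 0.03 (SE 0.19) that turned to -0.26 after scaling.

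SOCS7 (ENSG00000274211, chr17:38352228-38405593, plus strand), which binds insulin receptor substrates and was the most abundant of the 4, held 12.2, 13.2 and 9.70 TPM in control libraries 1 to 3, against 12.1, 13.3 and 12.5 TPM with PRMT1. The groups of SOCS7 overlapped, with a log2 difference of 0.11 (SE 0.13) that turned to -0.22 after scaling. In all of SOCS4, SOCS5, SOCS6 and SOCS7 the highest value was that of PRMT1 library 2.

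The differences among these genes between libraries of one group tended to run with the GC content of the transcripts, which went from 35.3% in SOCS4 to 69.1% in SOCS1. In PRMT1 library 2, SOCS4 was 0.64, SOCS5 0.52 and SOCS6 0.46 above the mean of the other 2 PRMT1 libraries on the log2 scale, while SOCS1 was 0.08 below it. In vector control library 3, SOCS4 was 0.60 below the other 2 controls and SOCS1 0.41 above them. Between these ends the order was loose, with SOCS5 at -0.36 and SOCS6 at -0.25. SOCS2, STAT3, STAT5B and SOCS7, at 47.3 to 52.1% GC, stood at -0.40, -0.29, -0.36 and -0.35. The lowest minus the highest GC decile of genes deviated by -0.04 in this library, against -0.12, 0.29 and -0.17 in PRMT1 libraries 1 to 3. The part of library composition in the differences between the groups was not tested. After a correction of every library for GC content SOCS1 stood at -2.87, SOCS3 at -1.13, SOCS2 at 0.63, SOCS4 at 0.30 and SOCS6 at -0.46. Without both libraries SOCS1 stood at -2.67, SOCS3 at -0.95 and SOCS2 at 0.76.

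**Figure D2:**
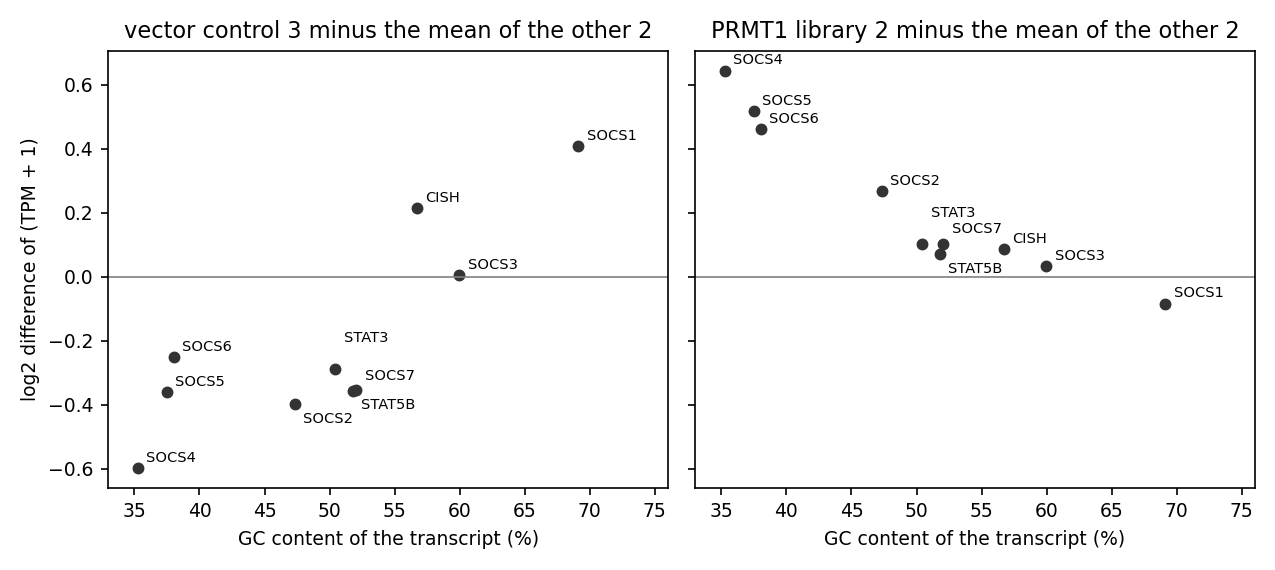
Log2 difference of (TPM + 1) of 1 library from the mean of the other 2 of its group, against the GC content of each gene's transcript in percent, for vector control library 3 (left) and PRMT1 library 2 (right). The AT-rich SOCS4 lies lowest on the left (-0.60) and highest on the right (0.64), and the GC-rich SOCS1 lies at the opposite ends (0.41 and -0.08).

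STAT3 (ENSG00000168610, chr17:42313324-42388568, minus strand), the factor that gp130 receptors activate, held 16.96, 18.3 and 14.2 TPM in control libraries 1 to 3, against 23.7, 24.5 and 21.9 TPM with PRMT1. STAT5B (ENSG00000173757, chr17:42199168-42276707, minus strand), which growth hormone and prolactin receptors activate, held 24.2, 25.6 and 19.2 TPM in control libraries 1 to 3, against 28.5, 30.9 and 30.3 TPM with PRMT1. For neither gene did the groups overlap. The log2 difference was 0.48 (SE 0.11) for STAT3 and 0.37 (SE 0.12) for STAT5B, close to the median of 0.30 over all tested genes, and after scaling 0.14 and 0.03. STAT5A, the near copy of STAT5B, was close to absent at a mean of 0.07 TPM in control cells and 0.05 TPM with PRMT1, and how reads common to both were assigned is not given in the sources used here.

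As deposited, 4 of the 10 members were called higher (SOCS2, SOCS4, STAT3, STAT5B) and 2 lower (SOCS1, SOCS3) by limma at a Benjamini-Hochberg adjusted p under 0.05, where 40.3% of all tested genes were called higher and 8.64% lower. After scaling 1 was called higher (SOCS2) and 2 lower (SOCS1, SOCS3), beside 23.5% and 24.1% of all tested genes. After GC correction 1 was higher (SOCS2) and 3 lower (SOCS1, SOCS3, SOCS6), beside 23.2% and 26%, and after quantile normalization, which gives all libraries the same distribution, 1 was higher (SOCS2) and 3 lower (SOCS1, SOCS3, SOCS7), beside 20.3% and 19.4%. The groups did not overlap in 6 of the 10 members, as in 61.4% of all tested genes. Over the 18 alternatives described below, SOCS1, SOCS2 and SOCS3 were called in all, STAT3 in 14, SOCS4 in 11 and STAT5B in 9. Leaving out PRMT1 replicate 2 alone ended the calls of SOCS4 and STAT5B. STAT5B also lost its call without PRMT1 replicate 1 or 3 or vector control replicate 1, and SOCS4 without vector control replicate 3. The members were chosen on this contrast, so nothing is read from these counts.

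**Figure D3:**
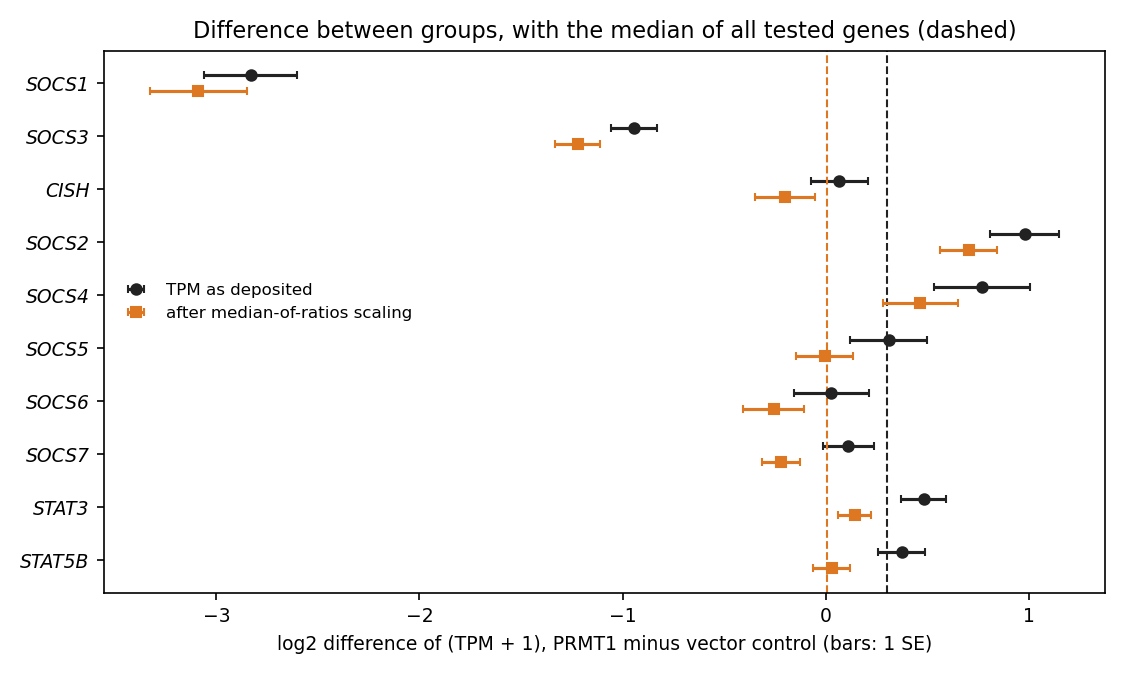
Log2 difference of (TPM + 1), PRMT1 minus vector control, for each gene with bars of 1 SE, from TPM as deposited (circles) and after median-of-ratios scaling (squares), with dashed lines at the median of all tested genes on each scale (0.30 and 0.01). SOCS1 (-2.83 and -3.09) and SOCS3 (-0.94 and -1.22) lie below and SOCS2 (0.98 and 0.70) above these medians on both scales.

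The order of the members by TPM changed most for SOCS1. In the controls STAT5B was highest, above STAT3, SOCS1 and SOCS7, then SOCS5 and SOCS3, then SOCS4, SOCS6, CISH and SOCS2. Neighbours within each of these groups had overlapping ranges, and STAT5B, SOCS7 and SOCS3 were each above the next gene in every control library. In the PRMT1 libraries the order was STAT5B, STAT3, SOCS7, SOCS5, SOCS4, SOCS2, SOCS6, CISH, SOCS3 and SOCS1, where the ranges of neighbours overlapped for SOCS5 with SOCS4 and for SOCS6 with CISH. SOCS1 thus went from rank 3 of 10 to rank 10.

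The make-up of the family differed between the groups. CISH and SOCS1 to SOCS7 summed to 52.2 ± 2.24 TPM in control libraries 1 to 3, against 45.4 ± 6.95 TPM with PRMT1 (SD, n = 3 each), with overlapping ranges. SOCS1 held 23.3, 27.2 and 36.2% of this sum in the controls and 4.66, 2.14 and 1.79% with PRMT1. The members with the kinase inhibitory region, SOCS1 and SOCS3, together went from 39.9 ± 7.02% to 8.44 ± 1.96%. SOCS2 went from 4.56 ± 1.10% to 12.5 ± 0.71%, SOCS4 from 8.21 ± 2.00% to 17.6 ± 2.68% and SOCS5 from 12.4 ± 1.57% to 18.3 ± 2.01%. SOCS7 held 22.3 ± 2.59% in the controls, where it was already the largest share in library 1, and 28.1 ± 3.11% with PRMT1. Such shares do not depend on the scaling of a library, and a fall of 1 gene raises the shares of the rest.

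**Figure D4:**
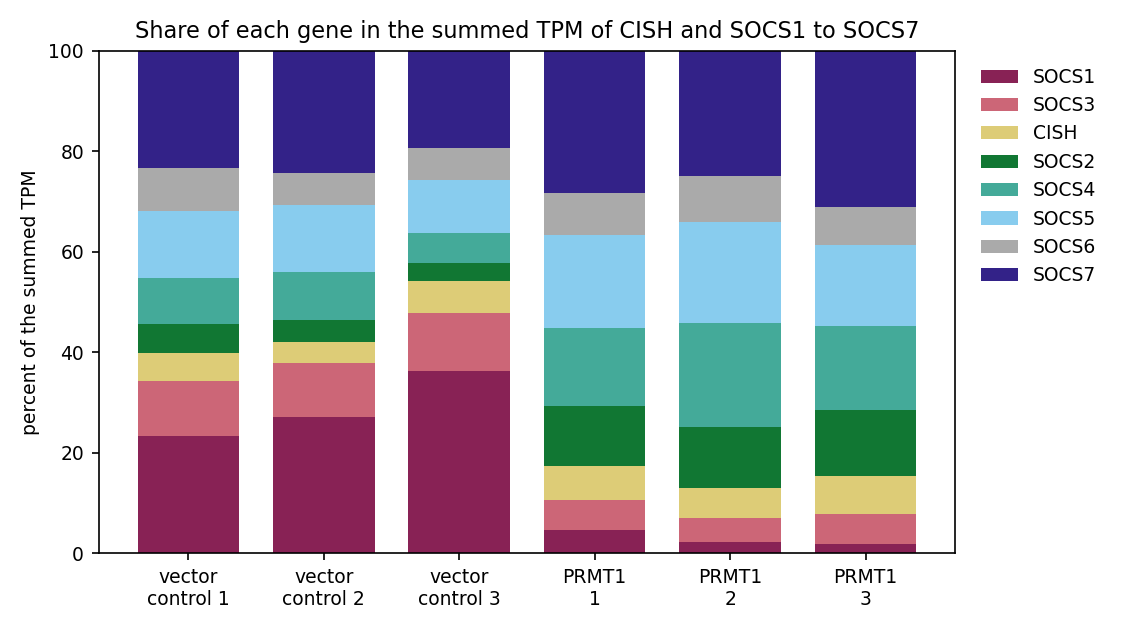
Percent of the summed TPM of CISH and SOCS1 to SOCS7 held by each gene, as stacked bars from 0 to 100 for the 3 vector control and 3 PRMT1 libraries. SOCS1 fills 23.3 to 36.2% of the control bars and 1.79 to 4.66% of the PRMT1 bars.

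The rest of the pathway was read from 8 lists of 141 genes, of which 99 were tested. The lists were drawn up with earlier results of these data known, and all calls are by limma with Benjamini-Hochberg adjustment over all tested genes. In all 35 genes were higher and 13 lower as deposited, and 22 higher and 32 lower after scaling, with a median log2 difference of 0.26 beside 0.30 over all tested genes. That is 35 and 13 of 99, where 40.3% of all tested genes were higher and 8.64% lower as deposited and 23.5% and 24.1% after scaling. Of the 99, STAT4 and IRS1 reached 1 TPM in the PRMT1 libraries only, so they could enter the test only as higher, and both are among the 35.

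The Janus kinases, the direct targets of SOCS1 and SOCS3, gave 0 calls of 4 as deposited by limma (of all tested genes 40.3% higher and 8.64% lower), with 0 at an unadjusted p under 0.05. JAK1 stood at 40.2 ± 7.19 and 38.3 ± 2.46 TPM, JAK2 at 1.46 ± 0.37 and 2.25 ± 0.53, JAK3 at 3.69 ± 0.57 and 2.94 ± 0.37, and TYK2 at 32.2 ± 3.14 and 29.9 ± 1.06 TPM (control and PRMT1, SD, n = 3 each). After scaling JAK1 (-0.40, adjusted p = 0.0119), JAK3 (-0.52, adjusted p = 0.0179) and TYK2 (-0.45, adjusted p = 0.0024) passed as lower, relative to a median gene near 0. Of all tested genes 24.1% were called lower on that scale.

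Of the other STAT genes, 4 of 5 were tested and 2 were higher as deposited, 1 of which is STAT4 (of all tested genes 40.3% were higher). STAT4, which interleukin 12 activates, held 0.301 to 0.671 TPM in control libraries 1 to 3, against 1.36 to 1.80 TPM with PRMT1 (log2 difference 0.80, limma adjusted p = 0.00868), but it was tested only because its PRMT1 values reached 1 TPM, so its call supports nothing. STAT2, a factor of interferon signals, went from 3.28 ± 0.84 to 5.26 ± 0.20 TPM (0.57, limma adjusted p = 0.0247). STAT6 differed by 0.05 (limma adjusted p = 0.811). After scaling no gene of the list other than STAT4 passed (of all tested genes 23.5% were higher), with STAT2 at 0.28 (limma adjusted p = 0.132). As deposited, STAT2 did not pass without PRMT1 replicate 1, 2 or 3 (0.59, 0.54 and 0.58, limma adjusted p of 0.06, 0.0658 and 0.0581).

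Among the cytokine receptor chains, 19 of 40 were tested, 9 higher and 1 lower as deposited (of all tested genes 40.3% and 8.64%), and 5 higher and 5 lower after scaling (23.5% and 24.1%). IFNGR1, the chain that binds interferon gamma, rose from 25.5, 23.9 and 21.4 TPM in control cells to 66.3, 83.6 and 60.7 TPM with PRMT1. No PRMT1 library came near a control, with a log2 difference of 1.52 (limma adjusted p = 0.000184) and 1.18 after scaling (limma adjusted p = 0.000186). Its partner chain IFNGR2 fell from 55.1 ± 1.28 to 45.5 ± 3.85 TPM (SD, n = 3 each, -0.27, limma adjusted p = 0.0281), and by more after scaling (-0.63, limma adjusted p = 0.00109). As deposited, leaving out any library other than PRMT1 replicate 2 ended this call (-0.29 to -0.24, limma adjusted p of 0.0507 to 0.109). The interferon gamma receptor thus had 1 chain higher and 1 lower. IFNLR1, the interferon lambda chain, rose by 0.85 (limma adjusted p = 0.00185) and IFNAR1, a chain of the type I interferon receptor, by 0.72 (limma adjusted p = 0.00641, and 0.0521 after quantile normalization).

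Receptor tyrosine kinases and docking proteins bound by SOCS proteins numbered 11 tested of 12. As deposited 5 were higher, IRS1 among them, and 0 lower (of all tested genes 40.3% and 8.64%), and after scaling 3 were higher and 1 lower (23.5% and 24.1%). MET, the hepatocyte growth factor receptor, rose by 0.94 (limma adjusted p = 0.00303). IRS4, an insulin receptor substrate abundant in this line, went from 70.7 ± 16.2 to 119.5 ± 3.16 TPM (0.78, limma adjusted p = 0.00578). KIT, the stem cell factor receptor and a target of SOCS6, rose by 0.71 (limma adjusted p = 0.00721), but did not pass after quantile normalization (0.25, adjusted p = 0.124).

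The list of the ubiquitin ligase that the SOCS box recruits also holds genes that work with it or with related ligases, and was tested in full, 10 of 10. As deposited 3 genes were higher and 2 lower (of all tested genes 40.3% and 8.64%), and after scaling 3 were higher and 6 lower (23.5% and 24.1%). CUL5, its scaffold, went from 6.94, 8.04 and 5.34 TPM to 13.5, 21.1 and 12.7 TPM (1.09, limma adjusted p = 0.00446). CUL2, the scaffold used by related boxes, rose by 0.91 (limma adjusted p = 0.00186) and ARIH2, a ligase that works with CUL5, by 0.65 (limma adjusted p = 0.00661). The small adaptor ELOB fell from 668 ± 37.1 to 517 ± 17.8 TPM (-0.37, limma adjusted p = 0.00277) and UBE2M, which charges cullins with NEDD8, fell by 0.39 (limma adjusted p = 0.0026), and neither fall passed after quantile normalization (-0.15 and -0.14, limma adjusted p = 0.14 and 0.128). CUL5 and ELOB, parts of the same complex, thus moved in opposite directions, as deposited and after median-of-ratios scaling.

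Of 30 other genes with a SOCS box, 15 were tested, 7 higher and 0 lower as deposited (of all tested genes 40.3% and 8.64%), and 5 higher and 3 lower after scaling (23.5% and 24.1%). ASB7 rose by 1.31 (limma adjusted p = 0.000312), ASB13 by 1.26 (limma adjusted p = 0.000256) and ASB6 by 0.75 (limma adjusted p = 0.000434), all ankyrin repeat proteins that use the box to bring substrates to the ligase. ASB13 held 18.5, 18.8 and 14.3 TPM in control libraries 1 to 3, against 44.2, 39.9 and 43.3 TPM with PRMT1. Every control value of ASB13 lay under every PRMT1 value.

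Inhibitors of the pathway outside the SOCS family numbered 14 tested of 16, 5 higher and 0 lower as deposited (of all tested genes 40.3% and 8.64%), and 3 higher and 1 lower after scaling (23.5% and 24.1%). PIAS1, which restrains STAT proteins in the nucleus, rose from 5.11, 5.37 and 5.13 TPM to 12.3, 15.2 and 12.7 TPM (1.21, limma adjusted p = 0.000256). PIAS4, of the same SUMO ligase family, rose by 1.10 (limma adjusted p = 0.000272). CBLB, a ubiquitin ligase for activated receptors, rose by 0.68 (limma adjusted p = 0.0108), but did not pass after GC correction (0.24, adjusted p = 0.117).

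Known STAT target genes outside the family were the list with most genes lower: 22 of 24 were tested, 4 higher and 10 lower as deposited (of all tested genes 40.3% and 8.64%), and 2 higher and 13 lower after scaling (23.5% and 24.1%). The median log2 difference was -0.34, beside 0.30 over all tested genes. FOS, an immediate early transcription factor, fell from 84.7, 84.5 and 84.9 TPM to 23.1, 25.4 and 23.0 TPM (-1.79, limma adjusted p = 3.12e-05). PIM1, a survival kinase, fell from 175 ± 5.21 to 71.4 ± 3.63 TPM (-1.29, limma adjusted p = 5.35e-05), and JUNB, a partner of FOS, by 1.13 on the log2 scale (limma adjusted p = 6.99e-05). In the other direction MYC rose by 0.73 (limma adjusted p = 0.00414), CCND1, cyclin D1, by 0.59 (limma adjusted p = 0.00175) and HIF1A, the hypoxia factor, by 0.61 (limma adjusted p = 0.0273). HIF1A did not pass after scaling (0.26, adjusted p = 0.139), nor without vector control replicate 1 (0.65, limma adjusted p = 0.0519), vector control replicate 3 (0.43, adjusted p = 0.056) or PRMT1 replicate 2 (0.47, adjusted p = 0.0863). Many of these genes also answer to other signals, such as serum and stress.

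**Figure D5:**
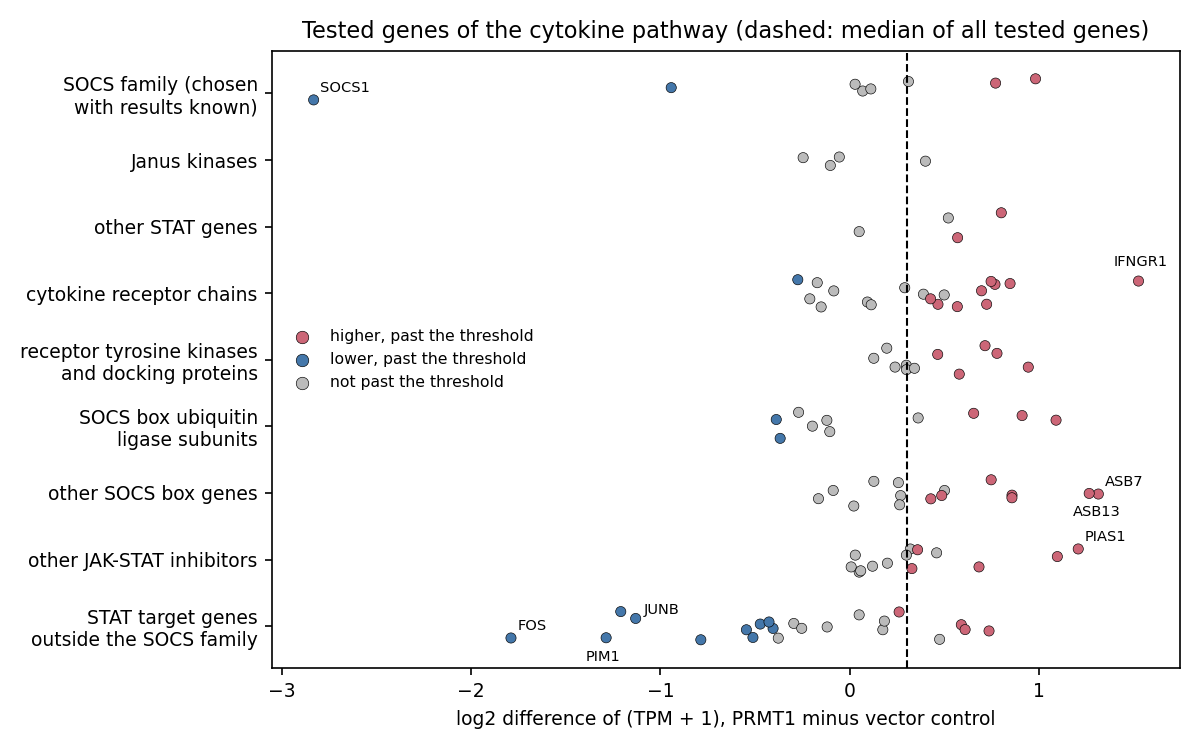
Log2 difference of (TPM + 1), PRMT1 minus vector control, of every tested gene in each list, coloured by whether it passed an adjusted p of 0.05 as deposited, with a dashed line at the median of all tested genes (0.30). SOCS1 (-2.83) lies farthest to the left and FOS (-1.79) is the lowest gene outside the family.

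The 5 genes whose profile over the 6 libraries was most like that of SOCS1, by root mean square difference in log2(TPM + 1) after subtracting each gene's control mean, were H2BC21 (0.37), HSPA6 (0.37), RNF103-CHMP3 (0.41), MNX1-AS2 (0.42) and EGR1 (0.44). H2BC21 encodes a histone H2B, HSPA6 a heat shock protein, and EGR1 an immediate early transcription factor. H2BC21 went from 246 ± 28.9 to 34.3 ± 4.56 TPM, HSPA6 from 17.6 ± 2.44 to 0.88 ± 0.47 TPM and EGR1 from 36.1 ± 5.86 to 3.04 ± 0.24 TPM (SD, n = 3 each). They were picked for their likeness to SOCS1, so their differences are a description.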

How the data were processed

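PolyA-selected RNA of 6 HEK293T libraries was sequenced. The authors deposited TPM per Ensembl gene. Per the submitters' processing notes, Trimmomatic 0.36, STAR 2.5.2b, featureCounts, Subread 1.5.2 and GRCh38 were used, with no roles named. The sources used here do not give the annotation, the strand setting or how TPM were computed. Each column sums to 1000000, so a gene with a large share lowers all others. Of 57500 identifiers, 56898 were found in GENCODE 29, which gave coordinates, lengths and GC content. TPM multiplied by length fell on whole reads (within 0.05 of a read) for at least 95.5% of values under 50 reads, and 3 reads correspond to 0.375 to 0.429 TPM for SOCS1.

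The members, lists and rules were chosen with earlier results of these data known. Groups came from the sample titles. Genes that reached 1 TPM in 3 or more libraries were compared on log2(TPM + 1) by limma 3.58.1 in R 4.3.3 (lmFit and eBayes with trend, no covariate), with Benjamini-Hochberg adjustment over 15341 genes. This scale understates changes of low genes. The fit was tested on simulated data. Named are PRMT1, the 10 members, per list the up to 3 genes with the smallest p in each direction and every tested gene of lists with 5 or fewer, the tested neighbours of SOCS1 and the 5 profiles most like it, except for an item not reported here. RMI2, IRS1, MAPKAPK3, SOCS2-AS1 and STAT5A were added after their values were seen, as overlapping, similar or filter-dependent genes, and markers came from fixed lists. Alternatives changed the pseudocount (0.1 and 5 TPM), the filter, the scaling, GC correction, variance trend, replicate block and libraries used, 18 in all.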

Additional observations from a re-analysis of the deposited data

How the results depend on the processing

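Over the 18 alternatives the log2 difference ran from -3.54 to -1.67 for SOCS1, from -1.38 to -0.52 for SOCS3 and from 0.53 to 1.23 for SOCS2, given as a description because the members were chosen on this contrast. Of 911 log2 differences of 51 named genes under an alternative, 57 lost a call, 22 gained one and 40 changed sign. The cause was not tested. SOCS1 is limited by 5 to 16 reads per PRMT1 library.

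Under GC correction, median-of-ratios scaling and quantile normalization, in this order, genes called higher numbered 3542, 3605 and 3109 and genes called lower 3972, 3692 and 2979, against 6190 and 1325 as deposited. In the pathway lists 21, 22 and 17 were higher and 30, 32 and 25 lower, against 35 and 13. Members called higher numbered 1 under each, against 4, and 2 with no filter. With PRMT1 removed before rescaling 880 genes were lower. Without both libraries that stood apart 2115 genes and 20 pathway genes were lower. Leaving out 1 library gave 5082 to 5634 genes higher, 935 to 1520 lower, 2 to 4 members higher (2 without PRMT1 replicate 2), 2 lower, 26 to 33 pathway genes higher and 11 to 13 lower. Differences in share between groups then ran from -28.8 to -22.4 percentage points for SOCS1, from -5.62 to -5.02 for SOCS3 and from 7.41 to 8.49 for SOCS2.

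The same replicate numbers did not pair the libraries (correlations of deviations of -0.03, 0.06 and 0.02, and not every library correlated best with its own number). With the replicate block 6275 genes were higher and 1314 lower, 4 and 2 members, and 37 and 13 pathway genes. With the replicate block and GC correction together 3178 genes were higher and 3770 lower, with 1 member higher and 19 pathway genes higher and 32 lower.

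Under GC correction, with or without the block, SOCS5 stood at -0.18, SOCS6 at -0.46, SOCS7 at -0.20, CISH at -0.17, STAT6 at -0.20 and JAK2 at -0.077. After median-of-ratios scaling SOCS5 stood at -0.0053, SOCS6 at -0.26, SOCS7 at -0.22, CISH at -0.20, STAT6 at -0.25 and CLEC16A at -0.032. After quantile normalization SOCS5 stood at -0.14, SOCS6 at -0.42, SOCS7 at -0.31, CISH at -0.37, STAT6 at -0.41 and CLEC16A at -0.19. Without both libraries that stood apart SOCS6 stood at -0.21, SOCS7 at -0.042 and STAT6 at -0.039. With PRMT1 removed JAK1 stood at 0.051, TYK2 at 0.0028 and LITAF at 0.033. Leaving out 1 library also changed signs, with ranges of -0.13 to 0.16 for SOCS6, -0.0074 to 0.20 for SOCS7, -0.027 to 0.14 for CISH, -0.084 to 0.12 for STAT6, -0.21 to 0.025 for JAK1 and -0.19 to 0.025 for LITAF.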
